A study of Mus musculus with 32 samples.

Results

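The forebrain (Fb) of Cdh6.8.11 triple knockout (TKO) embryos was compared with the wild-type (WT) Fb. The comparison rested on the 4 libraries labelled TKO Fb and the 6 labelled WT Fb, 10 of the 32 libraries of the series, and they were taken by their labels. All embryos were of B6C3F1 stock at E9.5. The TKO alleles were made in B6C3F1 eggs and the founder was crossed with B6C3F1. TKO embryos thus came from later generations and were not themselves F1. WT embryos came from WT matings, whereas TKO embryos came from crosses of triple heterozygotes and carried CRISPR/Cas9 deletions in the exon with the start codon of Cdh6, Cdh8 and Cdh11. All 3 alleles were made in 1 joint injection, and the methods class the TKO embryos as exencephalic, with an open cranial neural tube, so that the loss of the cadherins cannot be told apart from the open tube or from other features of that line. Embryos were genotyped by PCR of the yolk sac, and each library holds dissected tissue, not sorted cells, so fewer cells of a type and less RNA per cell cannot be told apart. Values are FPKM (fragments per kilobase of transcript, scaled to the mapped fragments of the library).

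Cadherins are membrane proteins that join neighbouring cells by binding like cadherins across the gap, and they hold the actin cytoskeleton through catenins. Type II cadherins such as Cdh6, Cdh8 and Cdh11 are expressed in nested domains of the early neural tube and help to sort its cells into compartments. At E9.5 the Fb is a neuroepithelium of dividing progenitors with few neurons, wrapped in cranial mesenchyme and surface ectoderm, and both can come along in a dissection.

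The depth estimated from the steps between low FPKM was 2.18 to 3.05 M fragments in WT Fb and 2.03 to 3.25 M in TKO Fb. The median correlation of a library with its own group was 0.947 to 0.950 in WT Fb and 0.930 to 0.939 in TKO Fb, and each TKO library correlated more with WT (0.933 to 0.944) than with the other TKO libraries. Six3, a transcription factor of the anterior forebrain and eye, was present in all 10 libraries at 33.5 to 54.5 FPKM against at most 1.36 FPKM in the WT midbrain (Mb), and the Mb factor En1 was at most 0.936 FPKM, which is the pattern of Fb tissue. Xist, which is expressed from the inactive X chromosome of females, was at 0.126 FPKM or less in WT replicates 1 to 3 and at 77.2 to 86.2 FPKM in WT replicates 4 to 6. In TKO Fb it was at 70.2 to 106 FPKM in replicates 1 to 3 and at 0.102 FPKM in replicate 4, so both groups mixed libraries with and without Xist.

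Cdh6 was read first among the targeted genes. Its level was 1.84, 0.766, 3.74 and 0.572 FPKM in TKO Fb replicates 1 to 4, against 2.04 to 4.0 FPKM in WT Fb (median 3.26). Thus 3 of the 4 TKO libraries lay below every WT library and the library labelled TKO Fb replicate 3 lay within the WT range. The log2 fold change, on the log2(FPKM + 1) scale used throughout, was -0.69 ± 0.30 (standard error; exact permutation test, two-sided, p = 0.0952), and -1.01 ± 0.25 without that library, which is given with no test because the library was left out for its Cdh6. Cdh8 was at 0.911 to 3.15 FPKM in TKO Fb and at 0.840 to 1.96 FPKM in WT Fb, and Cdh11 at 19.8 to 21.4 and 19.5 to 25.3 FPKM. These ranges overlapped. The deletions remove only a short part of each transcript, so an FPKM over the whole gene does not check them. Because the Cdh6 level of replicate 3 lay in the WT range, which does not settle its genotype, calls and counts of list members are given with and without it.

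Few genes separated the groups. With an adjusted p under 0.05 (limma, Benjamini-Hochberg), 8 of 13261 genes tested (0.0603%) changed, 5 higher (0.0377%) and 3 lower (0.0226%) in TKO Fb. Without replicate 3, 7 of 13255 genes (0.0528%) changed, 4 higher (0.0302%) and 3 lower (0.0226%). The count with replicate 3 was 0 when TKO replicate 2 was left out (1141 at an unadjusted p under 0.05), 1 without WT replicate 1, 2, 3, 4 or 6, and 3 without WT replicate 5. Both counts shared 4 genes, Fam107b, Tecr, Rps3a3 and Gm16397. Of the 11 genes called in either fit, 4 are protein-coding, 5 are pseudogenes and 2 are long non-coding RNAs. At an unadjusted p under 0.05 there were 1148 genes (8.66%), 672 higher (5.07%) and 476 lower (3.59%), and 1139 genes (8.59%) without replicate 3, 664 higher (5.01%) and 475 lower (3.58%). The libraries of both groups did not overlap for 296 genes (2.23%), 188 higher in TKO Fb (1.42%) and 108 lower (0.814%), and without replicate 3 for 576 genes (4.35%), 377 higher (2.84%) and 199 lower (1.5%).

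**Figure D1:**
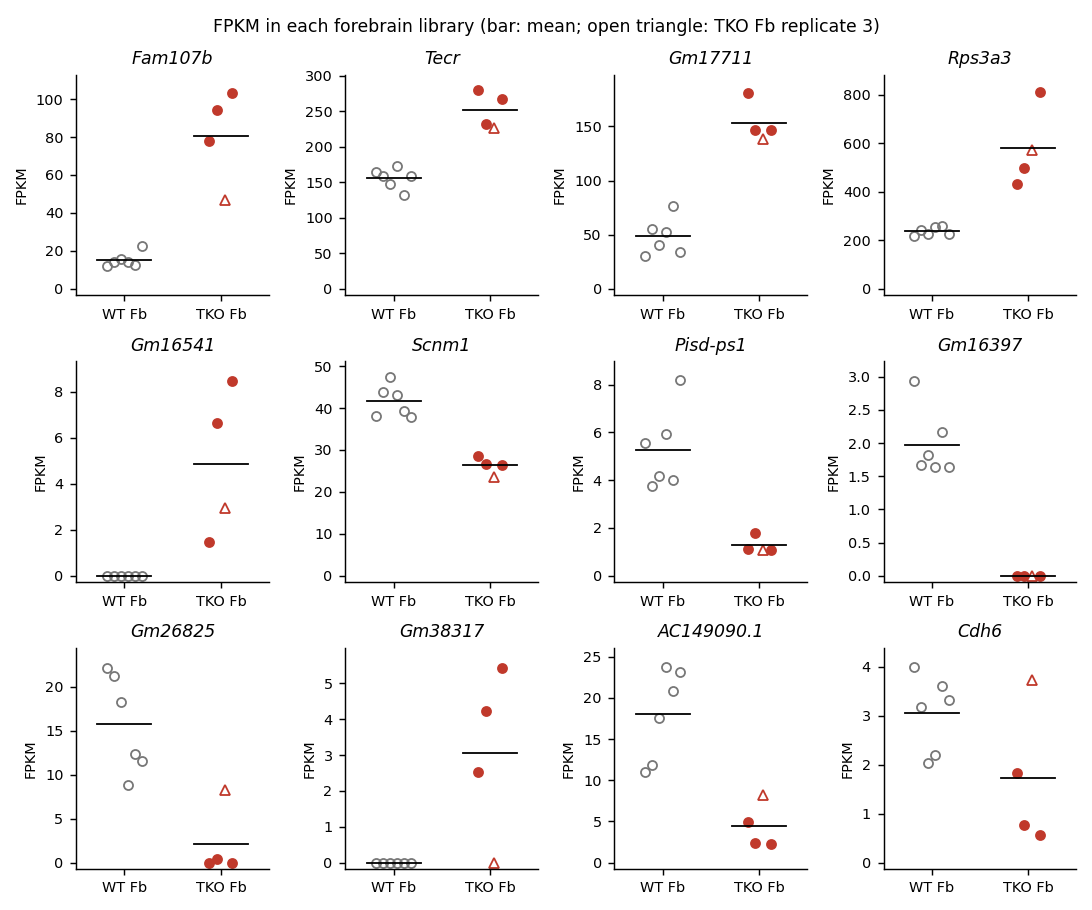
FPKM (vertical axes, linear) of the 11 genes called in either fit and of Cdh6 in each of the 6 WT Fb (open circles) and 4 TKO Fb libraries (filled circles; open triangle, replicate 3), with horizontal bars at the means. For 10 of the 11 called genes the groups do not overlap, and replicate 3 lies with WT at Cdh6 and at Gm38317.

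Fam107b, which encodes a small protein of the family of actin-associated FAM107 proteins, rose most among the protein-coding genes. It was at 77.8, 94.1, 46.8 and 103 FPKM in TKO Fb replicates 1 to 4 and at 12.3 to 22.7 FPKM in WT Fb (median 14.2). Every TKO library was above every WT library, and replicate 3 was the lowest of the 4. On the log2 scale the groups were 2.29 ± 0.22 apart (limma, adjusted p = 0.00763), and 2.53 ± 0.18 without replicate 3 (limma, adjusted p = 0.000678). The call was lost only without TKO replicate 2 among the 10 libraries left out in turn. Single libraries of other groups were also high. Among the 6 Fb libraries of the double knockouts (DKO) of this series the highest was at 71.8 FPKM (median 15.3), and in the Mb, WT reached 90.2 FPKM (median 14.2) and TKO 31.4 FPKM (median 12.8).

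Tecr, the reductase that completes each cycle of very-long-chain fatty acid elongation, rose. Its mean was 252 ± 26.6 FPKM (SD, n = 4) in TKO Fb and 156 ± 14.2 FPKM (SD, n = 6) in WT Fb. The TKO libraries were at 280, 232, 226 and 268 FPKM and no WT library exceeded 173 FPKM. On the log2 scale the groups were 0.69 apart (limma, adjusted p = 0.0357), and 0.74 without replicate 3 (limma, adjusted p = 0.0435). The call held in 1 of the 10 fits that left out a library, that without TKO replicate 3, while the log2 fold change was 0.63 to 0.74 over the alternatives with replicate 3 and 0.65 to 0.82 over those without it. Tecr lies on chromosome 8 of GRCm38 from 83571698 to 83607971, 15.5 Mb from Cdh8. It was the only one of 281 tested genes within 20 Mb of Cdh8 or Cdh11 to be called, against 8 of 13261 genes (0.0603%) in all. The median log2 fold change of the 281 was 0.06, against 0.02 over all genes tested. At an unadjusted p under 0.05, 24 of them were higher (8.54%) and 11 lower (3.92%), against 5.07% and 3.59% of all genes. Without replicate 3 it was 33 and 11. The 9 other tested genes of fatty acid elongation held no further call. Among them Elovl1, which lengthens saturated very-long chains, was at 9.97 to 17 FPKM in TKO Fb and 14.5 to 22.9 FPKM in WT Fb.

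Scnm1, a component of the splicing of minor introns, fell. It was at 28.6, 26.7, 23.6 and 26.4 FPKM in TKO Fb and at 37.9 to 47.5 FPKM in WT Fb, which is -0.64 ± 0.09 on the log2 scale (limma, adjusted p = 0.0391). Without replicate 3 the log2 fold change was -0.59 and the adjusted p was 0.0906. The call was lost whichever of the 10 libraries was left out. AC149090.1, a protein-coding gene on the unplaced scaffold JH584304.1, was at 4.98, 2.38, 8.22 and 2.30 FPKM against 11 to 23.7 FPKM, and it was called without replicate 3 (-2.17, limma, adjusted p = 0.0435) and not with it (-1.88, adjusted p = 0.104). Its call held in 2 of the 9 fits that left out a further library.

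Rps3a3 is annotated as a processed pseudogene of the ribosomal protein gene Rps3a1 within Pde4d on chromosome 13. It was at 434, 499, 573 and 811 FPKM in TKO Fb and at 217 to 257 FPKM in WT Fb, or 1.25 ± 0.15 higher on the log2 scale (limma, adjusted p = 0.0202) and 1.24 without replicate 3 (limma, adjusted p = 0.0435). The call held in 4 of the 10 fits that left out a library. Its transcript matches Rps3a1 at 786 of 795 bases (98.9%), and 65.1% of its stretches of 50 bases occur in other genes, so reads can be shared among the copies. To show how close they are, the 90 bases with the most differences are given below for the reference transcripts of GENCODE M21, in lower case with the 2 differing bases in capitals.
Rps3a3: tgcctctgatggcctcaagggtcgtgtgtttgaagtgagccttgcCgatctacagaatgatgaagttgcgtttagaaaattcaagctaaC
Rps3a1: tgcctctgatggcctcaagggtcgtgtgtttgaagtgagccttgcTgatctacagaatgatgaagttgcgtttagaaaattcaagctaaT
Rps3a1 itself was at 37.2 to 64.1 FPKM in TKO Fb and 55.7 to 74.9 FPKM in WT Fb, and the copy Rps3a2 at 951 to 1274 FPKM and 1185 to 1289 FPKM. The 3 copies together were at 1494, 1591, 1898 and 1819 FPKM in TKO Fb and at 1476 to 1579 FPKM in WT Fb, so that TKO replicate 1 lay within the WT range and the other 3 above it.

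Gm17711, a short pseudogene on the strand opposite to Abracl, was at 181, 147, 138 and 147 FPKM in TKO Fb and at 30.8 to 76.9 FPKM in WT Fb (1.70, limma, adjusted p = 0.0346, and 0.0709 without replicate 3), and the call held in 1 of the 10 fits that left out a library. Abracl overlapped between the groups, at 38.0 to 81.4 and 50.3 to 93.0 FPKM. Gm26825, a lincRNA on chromosome 5, was at 0, 0.412, 8.24 and 0 FPKM in TKO Fb and at 8.88 to 22.1 FPKM in WT Fb. Replicate 3 was the only TKO library near the WT range, and the gene was called without it (-3.83, limma, adjusted p = 0.000678) and not with it (adjusted p = 0.131). Its call held in all 9 fits that left out a further library. In the fits without replicate 3, Gm26825 reached the mean of 1 FPKM needed for a test only through WT Fb, so the held call adds no support. Pisd-ps1 was at 1.08 to 1.78 FPKM against 3.77 to 8.19 FPKM (-1.44, limma, adjusted p = 0.0391, and 0.0906 without replicate 3), and this call was lost whichever of the 10 libraries was left out.

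Calls on 3 further genes rested on few fragments. Each of these genes reached the minimum mean of 1 FPKM only through the group where it was higher, the other group being listed at 0, so that each had to differ once it was tested. Gm16397 was listed at 0 in all 4 TKO Fb libraries and at 1.64 to 2.93 FPKM in WT Fb (limma, adjusted p = 0.0202, and 0.0435 without replicate 3), which is about 4 fragments at most per library, and 84.7% of its 50-base stretches occur in Armcx6. Its call held in 3 of the 9 fits without a library in which it was tested. Every WT Fb library and TKO Fb replicate 3 listed Gm38317 at 0, and it was at 2.53, 4.24 and 5.42 FPKM in replicates 1, 2 and 4, also about 4 fragments at most, with 89.8% of its stretches in Itgb5. It was called only without replicate 3 (limma, adjusted p = 0.00920, against 0.252 with it). Gm16541, an antisense RNA of R3hcc1l on chromosome 19, was listed at 0 throughout WT Fb and was at 1.45, 6.64, 2.95 and 8.46 FPKM in TKO Fb, on about 13 fragments at most (limma, adjusted p = 0.0391, and 0.0718 without replicate 3), and it was called in 1 of the 10 fits that left out a library.

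Called genes included, 94 protein-coding genes of at least 5 FPKM were higher in every TKO library than in any WT library, with an unadjusted p under 0.05 with and without replicate 3, and 69 were lower. Over all 13261 genes tested the groups did not overlap for 1.42% (higher) and 0.814% (lower). The share among protein-coding genes of at least 5 FPKM was not counted, so 94 and 69 are not read as an excess. Apart from Fam107b, and AC149090.1 without replicate 3, none of those named next passed the adjusted test. After Fam107b, the largest positive log2 fold changes were those of Hspa8, Irx1, Dlx6, Cpe, Apcdd1, Suco, Npnt, Acot8 and Gadd45gip1. Like Tecr, Gadd45gip1 lies within 20 Mb of Cdh8 on chromosome 8, at a distance of 14.2 Mb. Irx1, an Iroquois homeobox factor of neural patterning, was at 11, 8.26, 13.1 and 22.1 FPKM against 3.05 to 7.64 FPKM (log2 fold change 1.22). Cpe, the carboxypeptidase that trims peptide hormones, was at 37.2 to 40.8 FPKM against 14.1 to 32.2 FPKM (0.87). TKO values of Cpe were close to each other, and those of Irx1 spread widely.

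Hspa8, the constitutive Hsc70 chaperone, had a split within WT. It was at 121 to 132 FPKM in WT replicates 1 to 3, at 252 to 281 FPKM in WT replicates 4 to 6, and at 544, 523, 284 and 534 FPKM in TKO Fb replicates 1 to 4 (1.31, adjusted p = 0.214). The split of WT followed both Xist and the replicate number, which cannot be told apart in WT. TKO replicate 4, without Xist, was as high as TKO replicates 1 and 2, and the cause was not tested. With Xist as a covariate the difference was 1.14 on the log2 scale (limma, adjusted p = 0.230). Npnt, a matrix protein that binds integrin, was at 6.13, 6.59, 12.1 and 15.4 FPKM against 3.89 to 5.35 FPKM (0.83), and Suco at 8.22 to 21.6 FPKM against 5.16 to 7.15 FPKM (0.84).

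After AC149090.1 the largest negative log2 fold changes were those of Rps12-ps3, Inka1, Col1a2, Tmem203, Rpl9-ps6, Rpl18, Fam213b, Ctu1 and Rex1bd. Rps12-ps3 and Rpl9-ps6 are copies of ribosomal protein genes that are annotated as protein-coding, and Rpl18 is a protein of the large ribosomal subunit. Ctu1, which thiolates the wobble base of some tRNAs, was at 5.32 to 6.56 FPKM against 9.03 to 11.4 FPKM (-0.66), and Inka1, an inhibitor of the kinase Pak4, was at 10.8, 9.66, 4.38 and 7.26 FPKM against 12 to 19.6 FPKM (-0.86).

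Cell-type content was read from lists of marker genes, each described by the number of tested members past an unadjusted p of 0.05 and by the median log2 fold change. Of all genes tested, 5.07% were higher and 3.59% lower at that threshold (5.01% and 3.58% without replicate 3). No member of these cell-type lists passed the adjusted test. Of 15 cranial mesenchyme genes 7 were lower and 1 higher, with a median of -0.37 (6 lower, 1 higher and -0.30 without replicate 3). The summed level of the list was 303.8 to 334.0 FPKM in WT Fb and 279.0, 281.0, 232.4 and 227.3 FPKM in TKO Fb replicates 1 to 4, below WT in all 4. Col1a2, a chain of fibrillar collagen I, was at 16.1, 18.4, 16.1 and 13.0 FPKM against 23.1 to 39.2 FPKM (-0.77 ± 0.15). Col3a1, of collagen III, was at 29.9 to 38.8 FPKM against 42.2 to 57.1 FPKM (-0.37). Dlx6, the member that was higher, is also a factor of forebrain neurons and placodes (10.7, 9.13, 19.8 and 16.9 FPKM against 2.14 to 8.84 FPKM).

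Surface ectoderm genes leaned the other way, and unevenly. Of 13 tested, 6 were higher and none lower with a median of 0.45, and 2 were higher without replicate 3 (median 0.45). The count was 1 without TKO replicate 4, with a median of 0.26, and it was 2, 2 and 1 when WT replicate 2, 4 or 6 was left out. The summed level was 106.7 to 188.8 FPKM in WT Fb and 148.0, 150.3, 275.6 and 375.4 FPKM in TKO Fb. Krt18, a keratin of simple epithelia, was at 31.3, 39.9, 68.1 and 94.8 FPKM against 18.7 to 32.2 FPKM (1.06 ± 0.27), its partner Krt8 at 25.3 to 62.7 FPKM against 15.5 to 33.3 FPKM (0.69), Grhl2, a factor of epithelial identity, at 3.10 to 6.96 FPKM against 2.24 to 4.29 FPKM (0.53) and the splicing regulator Esrp1 at 7.08, 6.26, 7.36 and 14.0 FPKM against a WT median of 4.98 FPKM (0.58). Replicates 3 and 4 carried the high values, and replicates 1 and 2 were within or near the WT range. Cdh3, a type I cadherin of ectoderm, followed them, at 4.89, 3.42, 6.32 and 7.43 FPKM against 1.66 to 4.22 FPKM (0.75).

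The median of placode genes was higher in all 4 TKO libraries than in any WT library. The list's sum was 27.98, 41.79, 40.73 and 54.56 FPKM in TKO replicates 1 to 4 against 26.86 to 31.08 FPKM, with replicate 1 within WT. The mean deviation of replicate 1 (0.073) was also within WT, which reached 0.084. Of 6 tested, 3 were higher (median 0.45; 1 higher and 0.48 without replicate 3), namely Cryab, a small heat shock protein of the lens, Dlx3, a homeobox factor of placodal ectoderm, and Eya1, a transcriptional cofactor of placodes. The count was 1 without TKO replicate 4 or WT replicate 1. Dlx3 was at 4.38 to 6.36 FPKM against 1.76 to 4.61 FPKM (0.56) and Eya1 at 8.35, 6.89, 11.6 and 8.26 FPKM against 5.70 to 7.42 FPKM (0.33). The defining lens genes Cryaa and Crygs were at 0 in all 10 libraries.

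Neuron genes leaned higher. Of 16 tested, 4 were higher and 1 lower, with a median of 0.31 (5 higher, none lower and 0.42 without replicate 3), but without TKO replicate 4 the count was 1 higher and 1 lower and the median was 0.12, and without WT replicate 3 or 5 there were 2 higher and 1 lower. Pou4f1, a factor of sensory neurons, was at 4.57, 2.67, 1.78 and 4.80 FPKM against 0.203 to 1.74 FPKM (1.19 ± 0.30), above WT in all 4. Neurog1, a proneural factor, was at 2.89, 3.66, 3.03 and 13.4 FPKM against 0.621 to 4.0 FPKM (1.08), with replicate 4 alone above WT. Ina, a neurofilament protein, was at 3.60 to 7.58 FPKM (0.54) against 2.87 to 5.08 FPKM, whereas Gap43, a growth cone protein, was at 13.9 to 18.3 FPKM against 16.0 to 28.5 FPKM (-0.40).

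Endothelial genes included 2 lower of 14 (median -0.21; 2 and -0.19 without replicate 3), Sox17, a factor of arterial endothelium, and Plvap, a protein of capillary fenestrae. The count was 1 without WT replicate 1, 4, 5 or 6 or TKO replicate 4, in the last case with a median of -0.12, and 3 without TKO replicate 1. Sox17 was at 2.35 to 3.08 FPKM against 3.20 to 6.59 FPKM (-0.66), below WT in all 4, and Plvap was at 22.8, 18.6, 20.1 and 8.16 FPKM against 20.2 to 28.1 FPKM. The list's sum was 158.2, 141.1, 129.9 and 83.95 FPKM in TKO replicates 1 to 4, with replicate 4 lowest, against 130.1 to 184.4 FPKM. Neural crest (9 tested) and red cell genes (12 tested) had no member past an unadjusted p of 0.05. Without replicate 3, 1 neural crest gene was higher and 1 lower, 1 was higher without WT replicate 5 or TKO replicate 2, 1 was lower without WT replicate 6, and 2 red cell genes were lower without WT replicate 1. Red cell genes varied most within WT, from 2815 to 24200 FPKM in sum. Among macrophage markers only Fcer1g was tested, and Tyrobp was at 0 in all libraries.

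**Figure D2:**
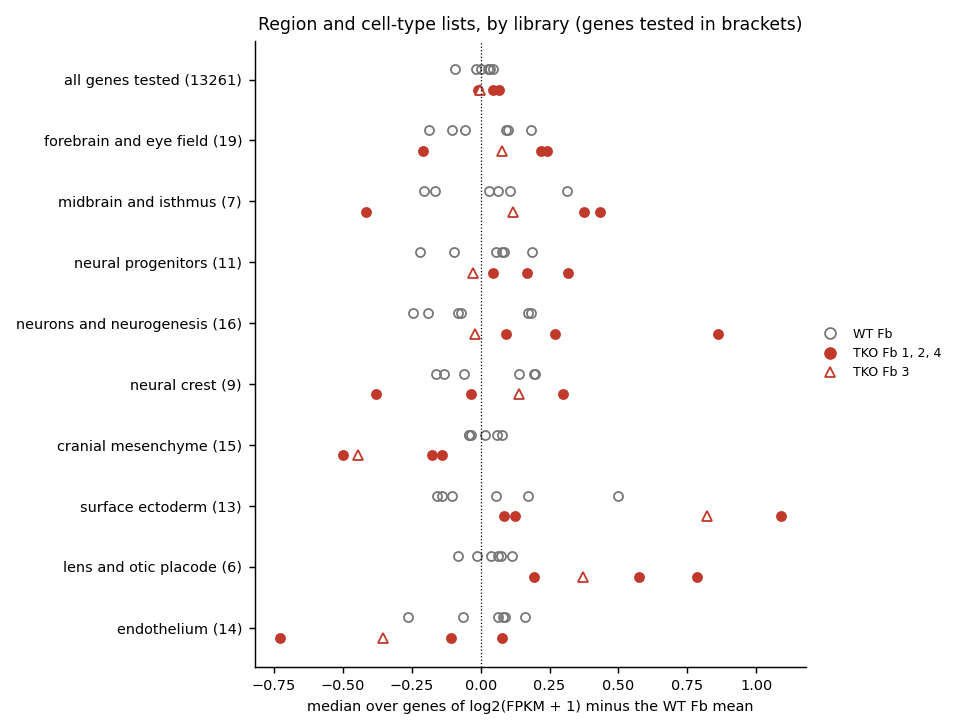
For each list of region or cell-type genes (rows), the median over its tested genes of log2(FPKM + 1) minus the mean of WT Fb (horizontal axis, log2 units) in each WT Fb (open circles) and TKO Fb library (filled circles; open triangle, replicate 3). TKO libraries lie below all WT libraries for cranial mesenchyme and above all for lens and otic placode, while for surface ectoderm replicates 3 and 4 stand out.

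Of 19 forebrain and eye field factors 1 was higher (5.26%, against 5.07% of all genes) and none lower, with a median of 0.02. Without replicate 3 it was 2 higher and a median of 0.05. Counts of 1 in the region lists were not read as a change of the list. The number higher was 2 without WT replicate 2 or 5 or TKO replicate 2 or 4 and 3 without WT replicate 6, and 1 was lower without TKO replicate 1 or 2. Pax6, a factor of dorsal forebrain and eye, was at 64.5 to 70.1 FPKM against 46.5 to 65.9 FPKM (0.32). Of 7 Mb and isthmus genes, 2 were higher, the organizer signals Fgf8 (21.7, 20.7, 20 and 38.9 FPKM against 7.39 to 22.5 FPKM, 0.85) and Wnt1 (1.92, 3.09, 4.42 and 3.85 FPKM against 0.203 to 2.30 FPKM, 0.95). Without replicate 3 there were 2 higher and 1 lower, and without TKO replicate 4 there was 1 higher. Both signals overlapped WT, and En1 and En2 were too low to be tested. As Fgf8 and Wnt1 were also present in WT Fb, their count was not read as Mb tissue or identity. Foxa2, of the ventral midline, was at 5.13 to 9.32 FPKM against 2.31 to 6.66 FPKM (0.69), and Msx2, of the dorsal midline, at 4.96 to 7.02 FPKM against 3.14 to 5.28 FPKM (0.38). They were the 1 of 9 ventral and the 1 of 12 dorsal genes past an unadjusted p of 0.05, and neither was past it without replicate 3. The ventral count without replicate 3 was 1, of another gene, and without TKO replicate 4 it was 0. The dorsal count was 0 without replicate 3 or WT replicate 1, 2 or 6 and 2 without WT replicate 3 or TKO replicate 2.

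Among the signalling lists, Wnt target genes were the one with the most members past an unadjusted p of 0.05, with 4 higher and none lower of 10 and a median of 0.16 (3 higher and 0.20 without replicate 3). Of all genes 5.07% were higher at that threshold (5.01% without replicate 3). Lists and members had been chosen with earlier results of these data known. The median deviation of the list was 0.31 to 0.42 in the TKO libraries and -0.19 to 0.21 in WT. Lef1, a transcription factor at the end of the Wnt pathway and itself a target, was at 33.8, 26.8, 14.4 and 45.7 FPKM against 6.8 to 15.5 FPKM, or 1.31 ± 0.30 on the log2 scale (limma, adjusted p = 0.214) and 1.62 without replicate 3 (limma, adjusted p = 0.0760). Replicate 3 was the only TKO library within the WT range. Sp5, a target that acts as a repressor, was at 7.88, 7.72, 12.7 and 11.8 FPKM against 3.94 to 7.06 FPKM (0.72 ± 0.18), above WT in all 4. Apcdd1, an inhibitor of Wnt signalling, was at 29.8, 23.6, 36.1 and 50.1 FPKM against 14.8 to 22.3 FPKM (0.84), also above WT in all 4, and Dkk1, a secreted inhibitor, at 3.69 to 7.34 FPKM against 1.38 to 5.11 FPKM (0.67). Axin2, the most widely used reporter of the pathway, was at 23.3 to 27.0 FPKM against 18.4 to 33.8 FPKM, and Ccnd1 at 80.8 to 108 FPKM against 76.2 to 98.1 FPKM.

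The promoters of Lef1, Sp5, Dkk1 and Axin2 were read for letters of the core motif of Tcf and Lef factors, CTTTGAA or CTTTGAT, on both strands of the 300 bases around each start in the RefSeq table (GRCm38.p6). Of 32851 promoters 8.65% hold a match. Sp5 and Dkk1 each hold 1, and none was found in the 4 listed promoters of Lef1 or in that of Axin2. For each, 80 bases around the match are shown, with the match in capitals. They lie at chr2:70474783-70474862 (plus strand) for Sp5 and chr19:30549570-30549649 (minus strand) for Dkk1. The match begins 104 bases upstream of the start in Sp5 and 117 bases upstream in Dkk1.
Sp5: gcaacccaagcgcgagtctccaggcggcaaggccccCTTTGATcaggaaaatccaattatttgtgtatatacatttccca
Dkk1: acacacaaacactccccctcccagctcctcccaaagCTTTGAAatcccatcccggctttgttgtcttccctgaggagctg
A match is a description of the letters and no evidence of binding.

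Of 13 Notch pathway genes 1 was higher at an unadjusted p under 0.05 (7.69%, against 5.07% of all genes), Notch1 (0.55). None was without replicate 3, TKO replicate 4 or WT replicate 4, 5 or 6, and 2 were without WT replicate 2. Of 12 Fgf feedback genes none was past it with or without replicate 3, and 2 were lower without TKO replicate 2. Of 7 Bmp targets none was, but 1 was lower without replicate 3 and 1 higher without TKO replicate 1. In the retinoic acid list 2 of 10 were lower with and without replicate 3, against 3.59% of all genes (3.58% without it). None was higher with or without replicate 3, and 1 and 2 were higher without TKO replicates 1 and 2. Those lower were both carriers that bind retinoic acid in the cytosol. Crabp1 was at 498, 547, 437 and 472 FPKM against 595 to 745 FPKM (-0.50 ± 0.09) and Crabp2 at 315 to 427 FPKM against 406 to 453 FPKM (-0.24). No gene of retinoic acid synthesis or breakdown was past it with or without replicate 3.

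Adhesion and morphogenesis lists are given by their members past an unadjusted p of 0.05, which 8.66% of all genes passed (8.59% without replicate 3). Of 12 other classic cadherins and catenins 1 was higher, Cdh3, with and without replicate 3, 2 were without WT replicate 2 or 3 or TKO replicate 2 or 4, and 3 without TKO replicate 1. None of 6 delta protocadherins or 16 nectin and apical polarity genes was past it with or without replicate 3, and of the latter 2 were higher without WT replicate 1 and 3 without TKO replicate 4. Of 21 genes of apical constriction, Arhgap35, a RhoGAP needed for neural fold closure, was higher (24.1 to 26.7 FPKM against 19.3 to 24.7 FPKM, 0.23) and Cfl1, which severs actin filaments, lower (758 to 865 FPKM against 864 to 927 FPKM, -0.15). Without replicate 3 none was higher and 2 were lower, Cfl1 was not past it without WT replicate 1 or 3 or TKO replicate 4, and no gene of the list was past it without WT replicate 6 or TKO replicate 1. Of 17 planar cell polarity genes, the atypical cadherins Celsr1 (0.30) and Celsr3 (0.68) were higher. Without replicate 3 it was 3, among them Celsr3 (0.87) but not Celsr1, and the count was 1 without WT replicate 1, 3, 5 or 6 or TKO replicate 1 and 0 without WT replicate 4 or TKO replicate 2 or 4. Of 18 Eph and ephrin genes Epha2 was higher (5.96, 2.38, 9.76 and 1.60 FPKM against 1.16 to 2.24 FPKM), with replicate 4 within WT. None was without TKO replicate 1 or 3, and 2 were without WT replicate 4 or 5 or TKO replicate 2. Of 13 basement membrane genes Nid1, a linker of laminin and collagen IV, was lower (-0.40). None was lower without TKO replicate 3 or 4 or WT replicate 5 or 6, and 2 were without WT replicate 4 or TKO replicate 1.

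Cytosolic ribosomal protein genes were the list with the most members lower. Of 80 tested, 30 were lower and none higher at an unadjusted p under 0.05, against 3.59% lower over all genes, with a median of -0.26 (40 lower and -0.30 without replicate 3). The median deviation was -0.65, -0.23, -0.07 and -0.07 in TKO replicates 1 to 4 against -0.13 to 0.16 in WT. Thus replicates 1 and 2 were below WT, replicate 1 by most, and 3 and 4 were within it. Without replicate 1 the count was 17 lower and 1 higher and the median -0.13, and without replicate 2 it was 19 lower and the median -0.26. Rpl7a was at 89.5, 105, 107 and 99.2 FPKM against 124 to 151 FPKM (-0.44 ± 0.08), Rpl18 at 255, 397, 325 and 341 FPKM against 481 to 622 FPKM (-0.71), and Rpl11 and Rpl6 at 269 to 406 FPKM and 378 to 570 FPKM, where no WT library was below 436 and 597 FPKM. Groups did not overlap for these 4 genes.

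Short genes as a whole were also lower. Leaving those out, the median log2 fold change of protein-coding genes was -0.17 below 1000 bp of exon (268 genes), -0.05 from 1000 to 2000 bp, 0.01 from 2000 to 4000 bp, 0.03 from 4000 to 8000 bp and 0.07 above. In the shortest group the deviation was -0.42 and -0.19 in TKO replicates 1 and 2 and 0.00 and 0.11 in replicates 3 and 4, with WT at -0.11 to 0.12. Ribosomal protein genes were at -0.29 against -0.17 for other genes below 1000 bp of total exon length. They were at -0.28 against -0.05 from 1000 to 2000 bp and at -0.23 against 0.01 from 2000 to 4000 bp. Total exon length counts the exons of all transcripts of a gene, so these classes do not match genes by the length of the transcript expressed. The part that transcript length plays in these differences was not tested.

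**Figure D3:**
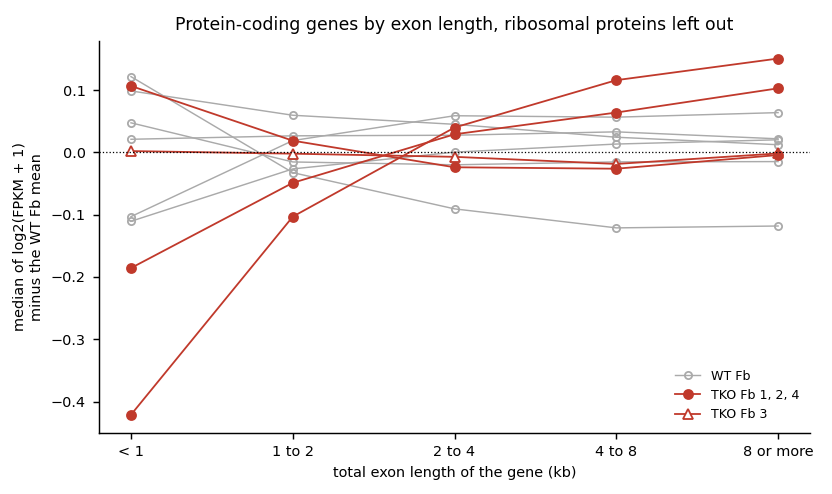
Median over protein-coding genes, without ribosomal protein genes, of log2(FPKM + 1) minus the WT Fb mean (vertical axis) by total exon length (horizontal axis, 5 classes in kb), 1 line per library (grey, WT Fb; red, TKO Fb; open triangles, replicate 3). TKO replicates 1 and 2 lie below all WT libraries in the shortest class (-0.42 and -0.19) and at or above 0.10 in the longest, whereas replicates 3 and 4 are near 0 in the longest.

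Respiratory chain genes encoded in mitochondria leaned higher, and the median of the nuclear subunits was slightly lower. Over all genes 5.07% were higher and 3.59% lower at an unadjusted p under 0.05 (5.01% and 3.58% without replicate 3). Of 13 encoded in mitochondria, 9 were higher and none lower (median 0.30, and 7 with a median of 0.25 without replicate 3). The median deviation of all 4 TKO libraries (0.26 to 0.48) was above that of every WT library (-0.24 to 0.22). The mean deviation of TKO replicate 1 (0.08) was not, as WT reached 0.20. The list's sum was 37980, 42930, 53160 and 47270 FPKM in TKO replicates 1 to 4 against 29840 to 41540 FPKM, with replicate 1 within WT. mt-Nd1, of complex I, was at 4340, 4500, 5550 and 4440 FPKM against 3000 to 4300 FPKM (0.40 ± 0.11), mt-Co1, of complex IV, at 4410 to 4870 FPKM against 3100 to 4570 FPKM (0.30), mt-Nd4 at 1720 to 1970 FPKM against 1110 to 1810 FPKM (0.35), and mt-Atp8, of the ATP synthase, at 6880 to 11800 FPKM against 3360 to 7200 FPKM (0.75). Of 79 nuclear subunits 8 were lower and none higher (median -0.08; 6 and -0.12 without replicate 3), and 3 lower and 1 higher without replicate 1 (median -0.00). The count was 4 without WT replicate 3, 5 without WT replicate 2 or 6, and 13 without TKO replicate 4. The median deviation of the nuclear list was -0.39, -0.12, 0.01 and 0.08 in TKO replicates 1 to 4. Protein-coding genes below 1000 bp of exon, without ribosomal protein genes, were at -0.42, -0.19, 0.00 and 0.11. The part of gene length in the nuclear list was not tested. Ndufa6 was at 101, 130, 165 and 165 FPKM against 182 to 209 FPKM (-0.51), and Ndufs4, of complex I like it, at 28 to 35.1 FPKM against 36.9 to 41.4 FPKM (-0.31).

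In the list of hypoxia and glycolysis genes 5 of 20 were lower and none higher (median -0.18; 3 and -0.15 without replicate 3, and 3 without TKO replicate 2 or WT replicate 1). The shares over all genes were 3.59% lower and 5.07% higher (3.58% and 5.01% without replicate 3). Hk2, which phosphorylates glucose, was at 37.5, 32.6, 37.1 and 27.7 FPKM against 40.3 to 53.8 FPKM (-0.49 ± 0.11), below WT in all 4. Tpi1, the triose phosphate isomerase, was at 355 to 416 FPKM against 415 to 577 FPKM (-0.37), Aldoa, an aldolase, at 629 to 757 FPKM against 734 to 915 FPKM (-0.26) and Pfkl, a phosphofructokinase, at 89.5 to 110 FPKM against 92.4 to 125 FPKM (-0.26). Of 18 cholesterol synthesis genes 2 were higher, among them Sc5d, a late desaturase (12.9 to 24.0 FPKM against 7.61 to 12.5 FPKM, 0.73). Sc5d alone was without replicate 3, TKO replicate 1 or 2 or WT replicate 2, 4, 5 or 6.

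**Figure D4:**
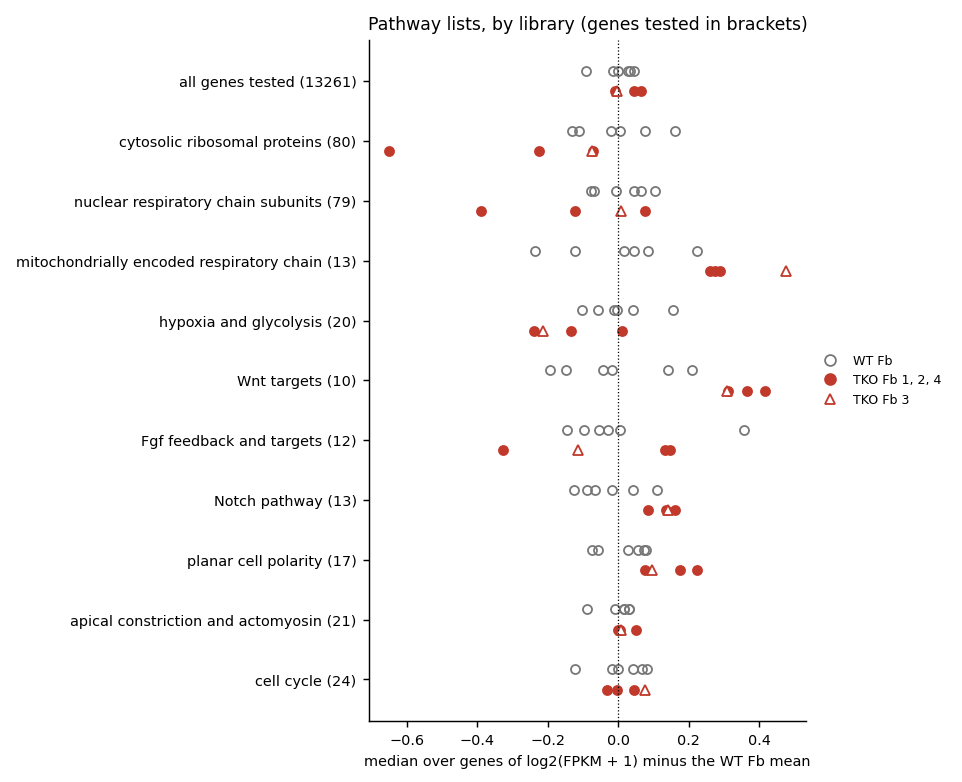
For each pathway list (rows), the median over its tested genes of log2(FPKM + 1) minus the mean of WT Fb (horizontal axis, log2 units) in each WT Fb (open circles) and TKO Fb library (filled circles; open triangle, replicate 3). All 4 TKO libraries lie above all WT libraries for the mitochondrially encoded genes and the Wnt targets, and for ribosomal proteins TKO replicate 1 is far to the left (-0.65).

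At an unadjusted p under 0.05, 5.07% of all genes were higher and 3.59% lower (5.01% and 3.58% without replicate 3). Counts of 1 in the lists that follow were therefore not read as a change of the list. Of 24 cell cycle genes 1 was higher (4.17%), Mcm4 of the replicative helicase (84.4 to 89.7 FPKM against 68.3 to 82.6 FPKM), and the median was -0.01. None was higher without TKO replicate 2 or 3, 2 were without WT replicate 1 or 2 or TKO replicate 4, and 3 without TKO replicate 1. Of 16 p53 and apoptosis genes 1 was higher, Ei24 (40.6 to 55.5 FPKM against 32.0 to 39.3 FPKM), and 1 lower, the pore-forming Bax (-0.27), both also without replicate 3. None was lower without WT replicate 1 or 3 or TKO replicate 2 or 4, and 2 were higher without WT replicate 2. Of 12 immediate early genes, which respond to tissue handling, Junb was higher (3.75 to 6.88 FPKM against 2.26 to 3.63 FPKM) and Ier3 lower (0.547 to 1.59 FPKM against 1.48 to 4.07 FPKM), with a median of -0.10, and both also without replicate 3. A further gene was higher without TKO replicate 1, and another was lower without TKO replicate 2. In the folate list Gcsh was higher (0.47) and Amt lower (-0.32), both of the glycine cleavage system, and in the stress response list Mthfd2, a mitochondrial folate enzyme, was lower (-0.34), and these 3 were also past it without replicate 3. The folate count was 2 higher and 1 lower without WT replicate 2, 1 higher and 2 lower without WT replicate 5 or TKO replicate 1, and 1 higher and none lower without TKO replicate 2 or 4, and the stress response count was 2 lower without WT replicate 1. Among 11 neural progenitor genes Sox2 was higher (0.27), but none was without replicate 3, TKO replicate 4 or WT replicate 4, and 2 were without WT replicate 2. Among 18 imprinted genes Mest was higher (0.14). There were 2 higher without replicate 3 or without WT replicate 2, none without WT replicate 1, 5 or 6 or TKO replicate 2 or 4, and 1 lower without TKO replicate 1. Among 7 stage genes with Lin28 none was past it with or without replicate 3, and 1 was higher without WT replicate 1. Of 83 tested ribosomal protein pseudogenes 6 were higher and 13 lower, among them Rpl3-ps1 (7.23, 9.29, 6.51 and 34.4 FPKM against 28.7 to 62.8 FPKM) and Rpl7a-ps3. Without replicate 3 it was 4 higher and 14 lower, and without TKO replicate 1 it was 11 and 11. Of 47 histone genes 1 was higher and 3 lower. None was higher and 3 were lower without replicate 3, 8 were lower without TKO replicate 4, 5 without WT replicate 3, 2 without WT replicate 5 or TKO replicate 1, and 1 without WT replicate 6.

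A test of the difference between the TKO effect in Fb and that in Mb was made over both tissues, in 20 libraries. It called 2 of 13423 genes (0.0149%), and 873 (6.50%) had an unadjusted p under 0.05. With the replicate number as a block limma called 0 genes, with 977 at an unadjusted p under 0.05, and without TKO replicate 3 in both tissues it also called 0, with 840 at an unadjusted p under 0.05. None of the genes named here was among those called. For Fam107b the difference was 2.60 on the log2 scale (limma, adjusted p = 0.483), and for Lef1 0.81 (limma, adjusted p = 0.869). Tecr was at 246 to 337 FPKM in TKO Mb and 136 to 186 FPKM in WT Mb, and Rps3a3 at 535 to 678 FPKM and 174 to 270 FPKM.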

How the data were processed

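The authors sequenced directional RNA libraries, used TopHat2 for the alignment to GRCm38, and the FPKM they deposited for each gene came from Cufflinks. Versions are not given in the sources used here. Their HTSeq counts and DESeq2 tests were not repeated, since the unit is FPKM. The FPKM of 65 repeated identifiers were summed, and 48218 of 48576 identifiers were found in GENCODE M21. The number of fragments was read from the spacing of low FPKM over 771 genes of 4000 bp or more.

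Log2(FPKM + 1) was compared with limma 3.58.1 in R 4.3.3 (lmFit, eBayes with a trend) where the mean FPKM reached 1, with Benjamini-Hochberg adjustment at 0.05. TKO Fb replicate 3 was left out in a second fit. Named genes were the 3 targets, all calls, up to 4 genes per list by p, and the 10 largest rises and falls among protein-coding genes of at least 5 FPKM with libraries that do not overlap. Xist, Axin2, Ccnd1, En1, En2 and copies of called genes were added as checks, as was Six3, and some genes that the rule names are not reported here. Exact permutation tests were two-sided. Copies were matched by 50-base stretches. Members and lists were chosen with earlier results of these data known. Nothing says that libraries of a group came from separate litters, so p-values measure the spread between them.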

Additional observations from a re-analysis of the deposited data

Results flagged for a closer look

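Among 177 groups of libraries (90 named genes, WT Fb and TKO Fb), 14 had a library far from the others by Dixon's ratio, and chance alone sets apart about 1 in 20. In TKO Fb, replicate 3 stood apart for Gm26825 (8.24 FPKM, next 0.412), Hspa8 (284.0 FPKM, next 523) and mt-Nd1 (5550 FPKM, next 4500), and replicate 4 for Fgf8 (38.9 FPKM), Neurog1 (13.4 FPKM), Rpl3-ps1 (34.4 FPKM) and Esrp1 (14.0 FPKM). Replicate 1 stood apart for Mcm4 (84.4 FPKM) and Pfkl (110.0 FPKM), and replicate 2 for Pisd-ps1 (1.78 FPKM). In WT Fb, replicate 6 stood apart for Fam107b (22.7 FPKM, next 15.9), replicate 1 for Ina (5.08 FPKM) and Grhl2 (4.29 FPKM), and replicate 5 for Suco (5.16 FPKM).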

How the results depend on the processing

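The fits were repeated with other pseudocounts (0.1 and 5), filters, scalings, without the mean-variance trend, with all 4 Fb groups, with Xist as a covariate, with a fold minimum, without genes near the targets and without each library. The count of 8 became 5 with no filter, and ranged from 0 to 8 when 1 library was left out. Without TKO Fb replicate 3 the count of 7 became 3 with a pseudocount of 5, 11 with no filter and 4 with quantile normalization, and ranged from 2 (without TKO replicate 2) to 17 (without TKO replicate 1) when a further library was left out. The 2 genes that differed between Fb and Mb became 1 with a pseudocount of 0.1, 1 with at least 1 FPKM in every library, 4 without the trend and 0 without TKO replicate 3. The cause was not tested.

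With the replicate number as a block the counts were 0, 0 and 0, with 948, 697 and 977 genes at an unadjusted p under 0.05. Deviations of same-numbered libraries correlated at -0.076 to 0.0496 between TKO Fb and WT Fb (0 of 4 best with their own number), at 0.00545 to 0.117 between TKO Fb and TKO Mb (3 of 4, 1 over 0.1) and at 0.0284 to 0.0989 between WT Fb and WT Mb (5 of 6, none over 0.1). Not every pair was over 0.1, so the numbers were not taken to pair libraries, and the counts across tissues are a hint from the data, not the design.

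Among single genes, the log2 fold change of Cdh8 was -0.01921 with quantile normalization, -0.04 without WT replicate 2 and -0.2069 without TKO replicate 4 (from -0.2069 to 0.1664 over the libraries left out in turn), and, without TKO replicate 3, -0.007562, -0.008914 and -0.2839. Of the values for 90 named genes (without replicate 3, for called genes and changes of call only), 2016 kept direction and side of the threshold, 148 lost the call, 17 gained it and 6 turned direction. Lef1 without replicate 3 gained it with at least 1 FPKM in every library (limma, adjusted p = 0.0482) and with Xist as a covariate (0.00265). Of the list medians, 917 moved by less than the SD between TKO libraries and 27 by more, while the macrophage list with at least 1 FPKM in every library and the targeted genes without their surroundings gave no value. Scaling shifted the median of all genes from 0.02 to -0.01 at most. Depth of 2.03 to 3.25 M fragments limits genes near 1 FPKM.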
